A study of Homo sapiens with 12 samples.

Results

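The genes described here are 8 subunits of TFIID that carry a histone fold, TAF3, TAF6, TAF8, TAF9, TAF9B, TAF10, TAF11 and TAF13. They were chosen by name from the 32010 genes of the count table, as the histone-fold TAFs other than TAF4, TAF4B and TAF12. Each had 1 row in the table, and all 8 were among the 19424 genes that passed the filter on low counts. The cells were HEK293 Flp-In, derived from human embryonic kidney and carrying 1 genomic site into which a transgene can be placed. Their polyadenylated RNA was sequenced in 12 libraries, 3 for each of 4 groups. The DE8 group received an siRNA against TAF5 and then doxycycline-induced, siRNA-resistant TAF5 that lacks exon 8. The FL group received the same siRNA and then siRNA-resistant full-length TAF5. The siTAF5 group received the TAF5 siRNA with no TAF5 transgene named in its titles, and the siNT group, the control, had siNT, a non-targeting siRNA by the usual reading of that name, in its place. Every library carries the same treatment label, siRNA with doxycycline, and the protocol starts doxycycline 24 h after transfection and keeps it for 48 h. A single TAF5 siRNA is named, and the dose of doxycycline in DE8 was not that of FL. The labels do not state whether the replicates of a group were grown apart. P-values therefore measure the spread between these libraries, which may be technical. In these bulk samples, fewer cells with a transcript and less of it per cell cannot be told apart.

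TFIID is the complex that recognises core promoters and brings the TATA-binding protein TBP to them. Histone-fold TAFs join in pairs through a fold like that of the core histones: TAF6 pairs with TAF9 or its paralog TAF9B, TAF10 pairs with TAF8 or with TAF3, and TAF11 pairs with TAF13. TAF5 holds the core of the complex together and contacts the TAF6 and TAF9 pair, and TAF9, TAF9B and TAF10 also belong to the coactivator SAGA.

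RefSeq promoters (build GRCh38.p14) were found for 7 of the 8 genes, in 11 entries, and TAF8 is named only. Those of TAF3, TAF9B and TAF13 are printed because these genes were higher in siTAF5 than in siNT and each has a single entry. Shown are the 130 bases before the RefSeq start, 5′ to 3′ on the gene's strand. Capitals mark a GC box (GGGCGG) or an ETS core (CGGAAG) on either strand.

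TAF3, chr10:7818375-7818504, plus strand: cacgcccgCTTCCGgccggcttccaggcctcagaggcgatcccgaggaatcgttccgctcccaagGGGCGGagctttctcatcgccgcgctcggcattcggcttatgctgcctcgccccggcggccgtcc
TAF9B, chrX:78139651-78139780, minus strand: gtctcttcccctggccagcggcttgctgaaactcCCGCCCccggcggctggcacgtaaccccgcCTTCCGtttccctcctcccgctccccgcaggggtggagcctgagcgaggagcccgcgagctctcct
TAF13, chr1:109076004-109076133, minus strand: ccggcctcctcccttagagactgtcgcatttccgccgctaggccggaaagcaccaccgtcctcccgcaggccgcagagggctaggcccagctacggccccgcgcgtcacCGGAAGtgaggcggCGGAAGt

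In the 250 bases before the start, an ETS core on either strand was found for 5 of the 7 genes with a promoter, TAF3, TAF9, TAF9B, TAF10 and TAF13, and in 5 of the 11 entries of these 7 genes, against 16.5% of all 35116 entries. TAF13 had an ETS core that starts 21 and another that starts 7 bases before the start. A GC box was found for 5 of 7 genes, TAF3, TAF6, TAF9, TAF9B and TAF10, and in 6 of 11 entries, against 42.6% of all entries. The TATA box (TATAAA), which lies upstream of a minority of human starts, was in 0 of the 11 entries of these genes and in 10.7% of all entries. A CCAAT box (CCAAT) was found for 3 of 7 genes, TAF6, TAF9B and TAF11, and in 4 of 11 entries, against 32% of all entries. The E box (CACGTG) was found for TAF9 alone, in 1 of 11 entries, against 6.34% of all entries, and the palindromic motif of NRF1 in 0 of 11 entries, against 5.07%. Both strands were searched for each motif, no motifs overlap in the 3 sequences printed, and a match describes the letters only.

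Library totals ran from 41.8 to 62.5 M estimated counts. TAF5 itself averaged 88 ± 0.757 CPM (counts on a scale that equalises library sizes, mean ± SD, n = 3 here and below) in DE8, 105 ± 2.44 in FL, 6.72 ± 0.612 in siTAF5 and 40 ± 0.698 in siNT, so both transgene groups stood above the siNT level. All 8 HEK293 markers of a list were detected above 1 CPM on average, and their summed level was 2250 to 2310 CPM in DE8, 1960 to 2020 in FL, 2110 to 2200 in siTAF5 and 1920 to 1990 in siNT. VIM, at a mean of 1300 CPM, carried this sum. In siTAF5 against siNT 1 of the 8 markers rose, VIM, and 5 fell (median log2 change -0.14), against 24.7% and 25% of all genes. In DE8 against siNT 2 were higher and 4 lower (median -0.20), against 30.8% and 31.4% of all genes. Markers of blood cells (5 genes) and of squamous epithelium (4 genes) summed to at most 0.131 and 0.18 CPM in any library. Of 6 fibroblast markers, 3 exceeded 1 CPM on average, COL1A1 (9.2), COL3A1 (2.2) and PDGFRA (2.27). The others, DCN, LUM and COL1A2, averaged at most 0.104 CPM. The summed level of the 6 was 10.7 to 10.8 CPM in DE8, 10.6 to 12.1 in FL, 13 to 13.8 in siTAF5 and 19.2 to 19.9 in siNT. The part of these shifts in the results below was not tested.

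Per kilobase of their main annotated transcript, the 8 transcripts differed several-fold in level. In siNT, TAF3 and TAF8 stood lowest, at 6.48 ± 0.0599 and 7.92 ± 0.319 CPM per kb. TAF9B followed at 20.4 ± 0.594, TAF11 at 23.1 ± 1.41 and TAF13 at 29.3 ± 0.718 CPM per kb, each step larger than these SDs. TAF10 (35 ± 3.11 CPM per kb), TAF9 (35.9 ± 1) and TAF6 (37.3 ± 1.16) did not differ beyond their spread. In DE8 the same scale gave TAF8 5.95 ± 0.326 and TAF3 10 ± 0.0799 CPM per kb, with TAF8 the lower of the pair. Lengths taken as the union of all annotated exons instead gave TAF10 6.96 CPM per kb in siNT, and put TAF8 (5.7) below TAF3 (6.48) in siNT too. They also reversed the order of TAF9B (19.8 CPM per kb), TAF11 (18.2) and TAF13 (17) in siNT. In siNT, the place of TAF10, the order of TAF8 and TAF3 and that of TAF9B, TAF11 and TAF13 therefore depend on the length used.

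**Figure D1:**
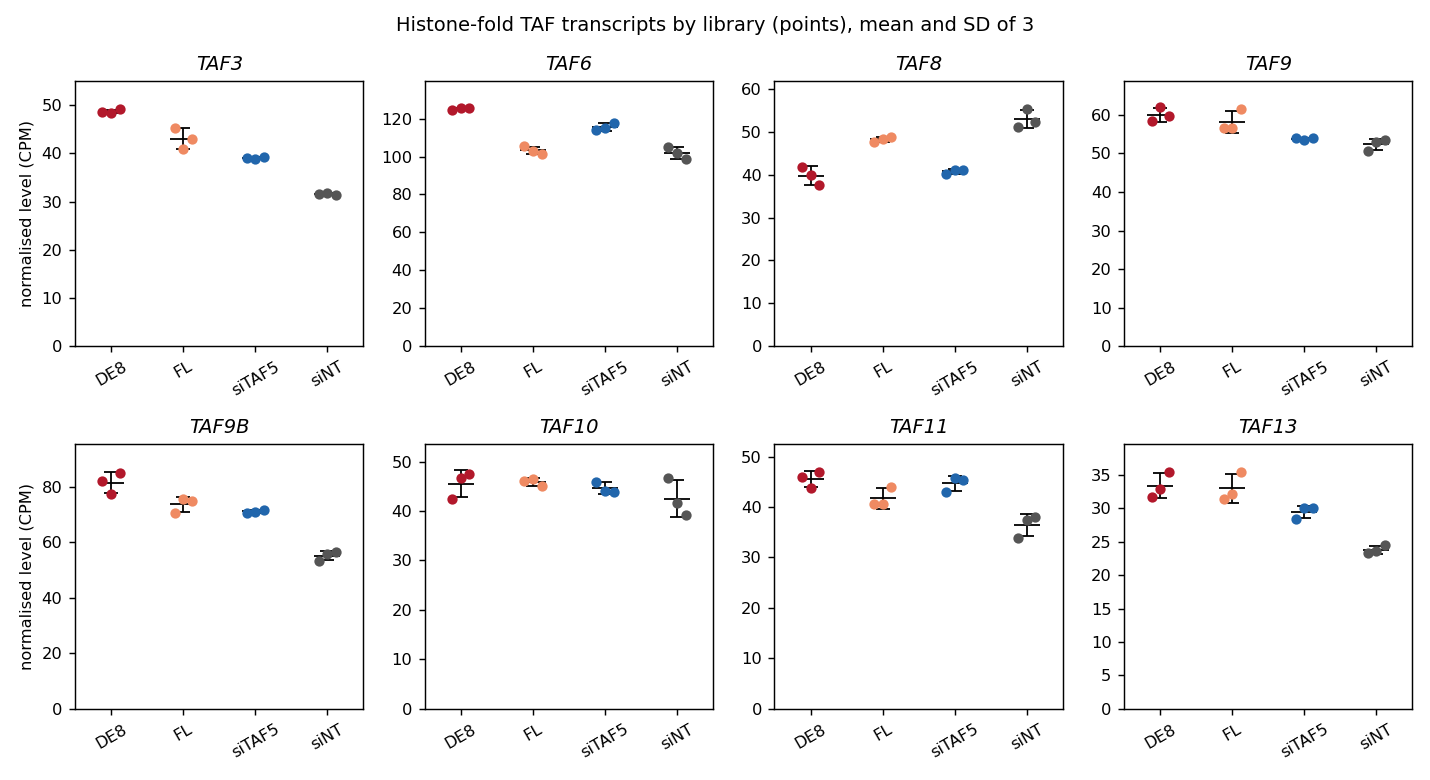
Normalised level in CPM (vertical axes, from 0) of the 8 histone-fold TAF transcripts in the 3 libraries of each group (points), with mean and SD (bars). TAF8 is lowest in DE8 and siTAF5 and highest in siNT, while TAF3, TAF9B and TAF13 are lowest in siNT.

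Depletion of TAF5, siTAF5 against siNT, asked how these transcripts stand when the scaffold subunit is reduced. TAF9B, TAF13, TAF3, TAF11 and TAF6 rose, by 1.14- to 1.29-fold, and TAF8 fell. TAF9 and TAF10 did not pass the test. Of the members that also belong to SAGA, TAF9B thus passed and TAF9 and TAF10 did not. In counts, 5 of 8 members were called higher and 1 lower, where 24.7% of all genes were called higher, 25% lower and 49.7% either way (edgeR quasi-likelihood test, Benjamini-Hochberg adjusted p under 0.05). For 6 of 8 members no siTAF5 library lay within the range of siNT, as was so for 57.3% of all genes. The median log2 change was 0.24 over the 8 members and 0.00022 over all genes, which the scaling holds near 0. Taken without its sign, it was 0.301 over the members and 0.194 over all genes.

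Among the partners of TAF5 in the core, TAF6 (ENSG00000106290, chromosome 7, 100106876 to 100119841, hg38, minus strand) had 114, 114.9 and 117.7 CPM in the siTAF5 libraries, against 105, 101.7 and 98.67 in siNT. All siTAF5 libraries lay above all siNT libraries. Its log2 change was 0.18 (SE 0.0268, edgeR adjusted p = 9.62e-06). TAF9 (ENSG00000273841, chromosome 5, 69362026 to 69370013, minus strand) had 54.05, 53.5 and 53.88 CPM in siTAF5 and 50.74, 52.94 and 53.51 CPM in siNT. These groups overlapped, and the log2 change of 0.04 (95% interval -0.04 to 0.11) was not called (edgeR adjusted p = 0.408). Its paralog TAF9B (ENSG00000187325, chromosome X, 78129748 to 78139650, minus strand), which can take the place of TAF9 beside TAF6, had 70.66, 71.03 and 71.74 CPM in siTAF5, against 53.45, 55.77 and 56.55 in siNT. The siTAF5 values were close together and above every siNT value. TAF9B rose 1.29-fold (log2 0.36, SE 0.0356, edgeR adjusted p = 5.52e-08), the largest rise of the 8.

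TAF8 (ENSG00000137413, chromosome 6, 42050513 to 42087461, plus strand), which in human cells brings TAF10 into the nucleus, had 40.17, 41.03 and 41.02 CPM in siTAF5, against 51.22, 55.31 and 52.22 CPM in siNT. The groups were separate, and TAF8 fell 1.3-fold (log2 -0.38, SE 0.0378, edgeR adjusted p = 7.57e-08). TAF3 (ENSG00000165632, chromosome 10, 7818497 to 8016631, plus strand), whose PHD finger reads trimethylated lysine on histone H3 at active promoters, had 38.96, 38.9 and 39.37 CPM in siTAF5, against 31.55, 31.9 and 31.32 CPM in siNT. It rose 1.24-fold (log2 0.31, SE 0.0359, edgeR adjusted p = 6.03e-07), with tight and separate groups. TAF10 (ENSG00000166337, chromosome 11, 6606294 to 6612539, minus strand), the partner of both, had 45.96, 44 and 43.93 CPM in siTAF5 and 46.62, 41.7 and 39.19 CPM in siNT. The log2 change of 0.07 (95% interval -0.03 to 0.18) was not called (edgeR adjusted p = 0.258). That outcome rested on siNT replicate 1, the highest TAF10 value of all siTAF5 and siNT libraries: without it the log2 change was 0.14 and was called (edgeR adjusted p = 0.0134).

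TAF11 and TAF13 form a pair near TBP and the general factor TFIIA, and both rose. TAF11 (ENSG00000064995, chromosome 6, 34877462 to 34889192, minus strand) had 42.96, 45.76 and 45.37 CPM in siTAF5, against 33.89, 37.39 and 38.03 CPM in siNT. TAF13 (ENSG00000197780, chromosome 1, 109062496 to 109076012, minus strand) had 28.38, 29.98 and 30.05 CPM in siTAF5, against 23.31, 23.62 and 24.44 CPM in siNT. For each the groups were separate. The log2 changes were close, 0.29 for TAF11 (SE 0.0445, edgeR adjusted p = 1.43e-05) and 0.31 for TAF13 (SE 0.0487, edgeR adjusted p = 2.3e-05).

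**Figure D2:**
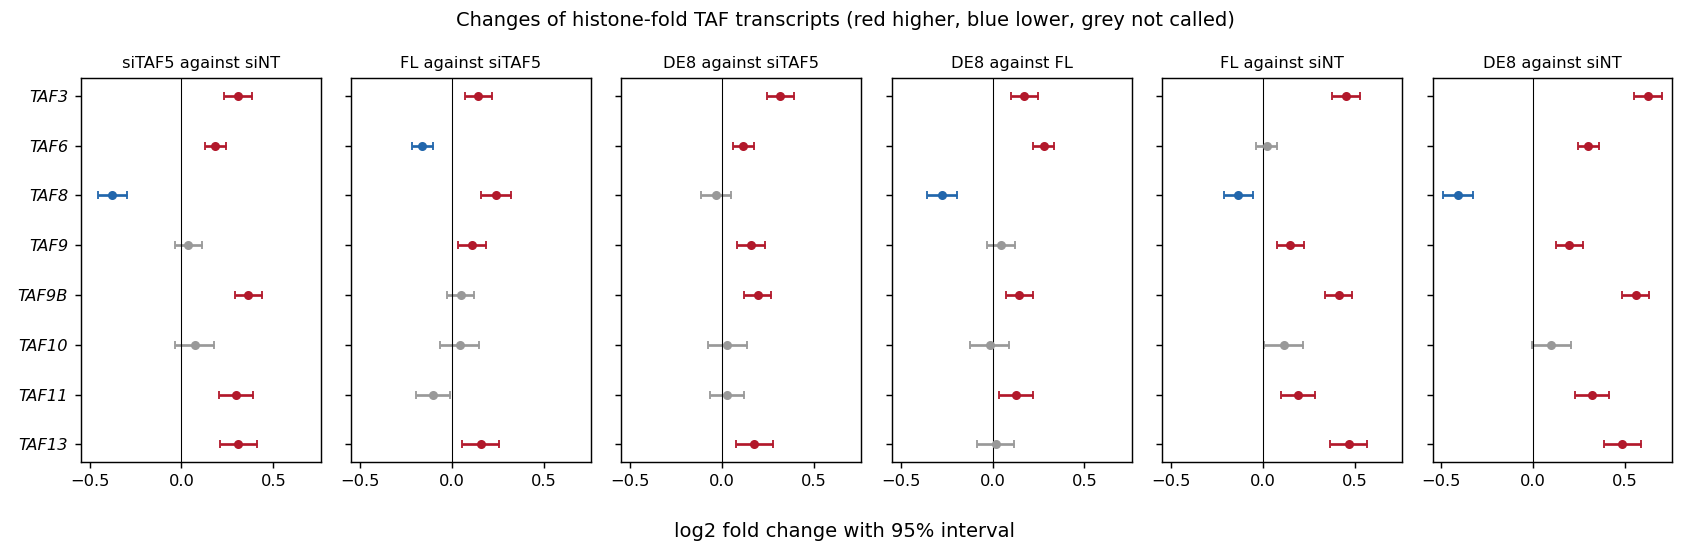
Log2 fold change (horizontal axes, with 95% interval) of each histone-fold TAF in the 6 comparisons, red where called higher, blue where called lower and grey where not called at an adjusted p of 0.05. TAF8 lies below 0 in siTAF5 against siNT and in DE8 against FL, opposite to TAF3, TAF6 and TAF9B.

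Adding full-length TAF5 back, FL against siTAF5, moved TAF8 and TAF6 in the directions opposite to those seen in siTAF5 against siNT. TAF8 rose 1.18-fold, with 47.71, 48.22 and 48.76 CPM in FL (log2 0.24, SE 0.0388, edgeR adjusted p = 2.75e-05). TAF6 fell 1.12-fold, with 105.3, 102.8 and 101.5 CPM in FL (log2 -0.16, SE 0.0271, edgeR adjusted p = 4.7e-05). For both genes every FL library was separate from every siTAF5 library. These comparisons share the siTAF5 libraries, so opposite signs are not independent of each other.

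TAF3, TAF13 and TAF9 were also higher in FL than in siTAF5. TAF3 had 45.33, 40.87 and 43.03 CPM in FL and rose 1.11-fold over siTAF5 (log2 0.14, SE 0.0355, edgeR adjusted p = 0.00209). TAF13 rose 1.12-fold (edgeR adjusted p = 0.0102), with 31.43, 32.07 and 35.4 CPM in FL. TAF9 rose 1.08-fold (edgeR adjusted p = 0.0146), with 56.51, 56.48 and 61.52 CPM in FL. FL replicate 3 was the highest FL library for both TAF13 and TAF9: without it the adjusted p was 0.0816 and 0.113 by edgeR, and neither was called. TAF9B (log2 0.05, with 70.51, 75.66 and 74.91 CPM in FL) and TAF10 (log2 0.04, with 46.14, 46.54 and 45.05 CPM in FL) did not pass. TAF11 had 40.57, 40.51 and 44.03 CPM in FL, overlapping with siTAF5, and was not called (log2 -0.10, edgeR adjusted p = 0.0645). Leaving out FL replicate 3, siTAF5 replicate 1 or siNT replicate 1 made it a call, with an edgeR adjusted p of 0.019, 0.0424 and 0.0322 in that order. In all, 4 of 8 members were called higher and 1 lower, against 24.4% of all genes higher, 24.4% lower and 48.8% either way. The libraries did not overlap for 5 members, against 56.3% of all genes. The median log2 change was 0.08 over the members and -0.0052 over all genes. Taken without its sign, it was smaller over the members (0.128) than over all genes (0.198).

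With TAF5 lacking exon 8, DE8 against siTAF5, no member fell and 5 of 8 rose, where 20% of all genes were called higher, 20.6% lower and 40.6% either way. TAF3 rose most, 1.25-fold, with 48.56, 48.4 and 49.14 CPM in DE8 (log2 0.32, SE 0.0349, edgeR adjusted p = 6.32e-07). TAF9B rose 1.14-fold (82.23, 77.4 and 84.82 CPM in DE8, edgeR adjusted p = 0.000162), TAF13 1.13-fold (31.75, 32.96 and 35.44 CPM, edgeR adjusted p = 0.00593) and TAF9 1.12-fold (58.32, 61.96 and 59.75 CPM, edgeR adjusted p = 0.00138). TAF6 rose 1.08-fold, to 124.6, 125.5 and 125.5 CPM in DE8 (edgeR adjusted p = 0.00162). For these 5 genes the DE8 and siTAF5 libraries did not overlap, as was so for 49.9% of all genes. TAF8 was not called, with 41.89, 39.82 and 37.53 CPM in DE8 and a log2 change of -0.03 (95% interval -0.11 to 0.05, edgeR adjusted p = 0.557). TAF10 (42.47, 46.59 and 47.57 CPM in DE8, log2 0.03) and TAF11 (45.95, 43.86 and 46.86 CPM in DE8, log2 0.02) were not called either, and both overlapped with siTAF5. The median log2 change was 0.14 over the members and -0.011 over all genes. Taken without its sign, it was 0.136 over the members and 0.155 over all genes.

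The comparison of TAF5 without and with exon 8, DE8 against FL, separated the members most clearly at TAF6 and TAF8. TAF6 was 1.21-fold higher in DE8, at 125 ± 0.5 CPM, against 103 ± 1.93 CPM in FL (log2 0.28, SE 0.027, edgeR adjusted p = 1.17e-07). TAF8 was 1.21-fold lower in DE8, at 39.7 ± 2.18 CPM, against 48.2 ± 0.526 CPM in FL (log2 -0.27, SE 0.0389, edgeR adjusted p = 1.28e-05). Leaving out any 1 of the 6 libraries kept both calls, with log2 changes between 0.27 and 0.29 for TAF6 and between -0.31 and -0.23 for TAF8. TAF3 was 1.13-fold higher in DE8 (48.7 ± 0.389 CPM, against 43.1 ± 2.23 in FL, edgeR adjusted p = 0.000547) and TAF9B 1.11-fold higher (81.5 ± 3.76 CPM, against 73.7 ± 2.79 in FL, edgeR adjusted p = 0.00258). TAF11 was 1.09-fold higher (45.6 ± 1.54 CPM, against 41.7 ± 2.02 in FL, edgeR adjusted p = 0.0303), but its libraries overlapped, and the call was lost without DE8 replicate 1 or 3 or FL replicate 1 or 2, where the edgeR adjusted p lay between 0.0629 and 0.126.

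TAF9, TAF10 and TAF13 were not called between DE8 and FL, and the 95% intervals of their log2 changes were -0.03 to 0.12, -0.12 to 0.09 and -0.08 to 0.12. In counts, 4 of 8 members were higher and 1 lower in DE8, against 17.3% of all genes higher, 19.7% lower and 37% either way. The libraries did not overlap for 4 members, against 45.7% of all genes. The median log2 change was 0.09 over the members and -0.0089 over all genes. Taken without its sign, it was 0.137 over the members and 0.15 over all genes. The TAF5 gene's total level, which does not separate transgene from endogenous RNA, also differed between these groups, as given above, and doxycycline doses differed, so exon 8 and the amount of TAF5 cannot be told apart here.

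Set against siNT, most members were called in both transgene groups, as were 54.6% of all genes in FL and 62.2% in DE8. In FL, 5 of 8 were higher and 1 lower, where 27.8% of all genes were called higher, 26.8% lower and 54.6% either way. TAF13 was 1.38-fold higher (33 ± 2.13 CPM in FL, against 23.8 ± 0.583 in siNT), TAF3 1.37-fold (43.1 ± 2.23, against 31.6 ± 0.295 CPM) and TAF9B 1.33-fold (73.7 ± 2.79, against 55.3 ± 1.62 CPM), each with an edgeR adjusted p of at most 1.02e-07. TAF11 was 1.14-fold and TAF9 1.11-fold higher. TAF8 was 1.1-fold lower in FL than in siNT (48.2 ± 0.526, against 52.9 ± 2.13 CPM, log2 -0.13, SE 0.0376, edgeR adjusted p = 0.00465). TAF6 was not called (103 ± 1.93 CPM in FL, against 102 ± 3.15 in siNT, 95% interval of the log2 change -0.04 to 0.08). The libraries of these groups did not overlap for 6 members, against 59.7% of all genes. The median log2 change was 0.17 over the members and 0.0062 over all genes. Taken without its sign, it was smaller over the members (0.17) than over all genes (0.218).

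In DE8 against siNT, 6 of 8 members were higher and 1 lower, against 30.8% of all genes higher, 31.4% lower and 62.2% either way. TAF3 had the largest change of any member in any comparison, 1.54-fold higher (48.7 ± 0.389 CPM in DE8, against 31.6 ± 0.295 in siNT, log2 0.62, SE 0.0353, edgeR adjusted p = 7.86e-12). TAF9B was 1.47-fold, TAF13 1.4-fold, TAF11 1.25-fold, TAF6 1.23-fold and TAF9 1.14-fold higher. TAF8 was 1.33-fold lower (39.7 ± 2.18 CPM in DE8, against 52.9 ± 2.13 in siNT, log2 -0.41, SE 0.0379, edgeR adjusted p = 1.02e-08). The libraries did not overlap for 7 members, against 65.7% of all genes. The median log2 change was 0.31 over the members and -0.00091 over all genes. Taken without its sign, it was 0.364 over the members and 0.281 over all genes. TAF10 was not called in either comparison with siNT (42.5 ± 3.78 CPM in siNT), at log2 0.11 in FL and 0.10 in DE8. Without siNT replicate 1 it was called higher in both (log2 0.18 in FL, edgeR adjusted p = 0.00186, and log2 0.17 in DE8, edgeR adjusted p = 0.00291). Without DE8 replicate 1 it was also called in DE8 (log2 0.15, edgeR adjusted p = 0.0217).

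Across the 4 groups, DE8 held the highest mean of TAF3, TAF6, TAF9, TAF9B, TAF11 and TAF13 and the lowest of TAF8. For some the next group was not told apart: TAF9 and TAF13 were not called against FL, nor TAF11 and TAF8 against siTAF5. Group means of log2 CPM spanned 0.62 for TAF3, 0.56 for TAF9B, 0.49 for TAF13, 0.41 for TAF8, 0.32 for TAF11, 0.299 for TAF6, 0.20 for TAF9 and 0.12 for TAF10, and the median span of all genes tested was 0.40. The span of TAF10 stood at percentile 5.78 of all genes and that of TAF3 at percentile 73.

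Ratios of paired members within a library do not depend on library scaling. They were taken as estimated counts of one gene over those of the other, without a length correction, so only their change between groups is read. TAF8 and TAF3, alternative partners of TAF10, shifted most. The ratio of TAF8 to TAF3 was 0.863, 0.823 and 0.764 in the DE8 libraries, 1.05, 1.18 and 1.13 in FL, 1.03, 1.05 and 1.04 in siTAF5 and 1.62, 1.73 and 1.67 in siNT. Only FL and siTAF5 overlapped. The log2 ratio fell by 0.68 in siTAF5 against siNT, by 0.46 in DE8 against FL and by 1.04 in DE8 against siNT (exact two-sided permutation test, p = 0.1 each, the smallest that 3 against 3 libraries allow, 0.15 after Benjamini-Hochberg adjustment over 24 ratio tests).

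The ratio of TAF9B to TAF9 was 1.41, 1.25 and 1.42 in DE8, 1.25, 1.34 and 1.22 in FL, 1.31, 1.33 and 1.33 in siTAF5 and 1.05, 1.05 and 1.06 in siNT. All libraries with the TAF5 siRNA lay above all siNT libraries, and the groups with that siRNA overlapped each other. TAF6 to TAF9 was lowest in FL, at 1.86, 1.82 and 1.65, against 2.11, 2.15 and 2.19 in siTAF5 and 2.07, 1.92 and 1.84 in siNT, while DE8 had 2.14, 2.02 and 2.1. The FL libraries lay below all DE8 and siTAF5 libraries and overlapped with siNT. TAF11 to TAF13 was lower in both transgene groups, at 1.45, 1.33 and 1.32 in DE8 and 1.29, 1.26 and 1.24 in FL, against 1.51, 1.53 and 1.51 in siTAF5 and 1.45, 1.58 and 1.56 in siNT. Of the 24 ratio comparisons, 16 had no overlap between groups, and none could reach a p of 0.05 by this exact test. For levels of single genes, groups did not overlap in 45.7% (DE8 against FL) to 65.7% (DE8 against siNT) of all genes. No such share was computed for ratios of other gene pairs.

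**Figure D3:**
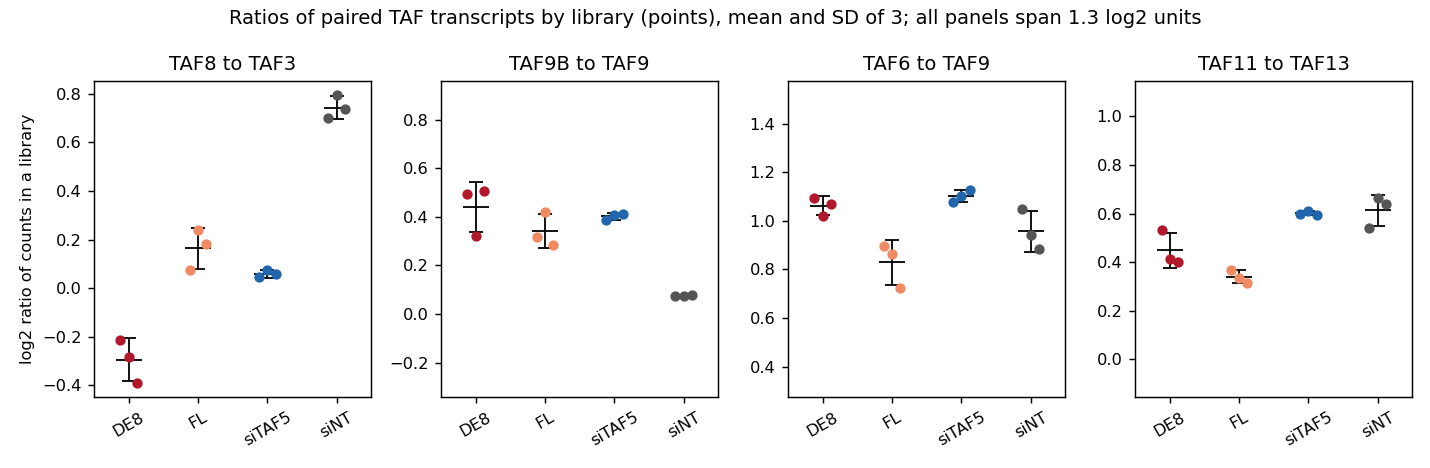
Log2 ratio of estimated counts (vertical axes, all of equal span) for 4 pairs of histone-fold TAFs in each library (points), with mean and SD (bars). TAF8 to TAF3 is highest in siNT and lowest in DE8, and TAF9B to TAF9 is lower in siNT than in the other groups.

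Several members overlap other genes, and no source used here gives the strand setting of the authors' counting, so reads of opposite-strand neighbours cannot be told apart from those of the member. TAF6 overlaps AP4M1, a subunit of an adaptor complex for vesicle transport, on the opposite strand, and 30.4% of the 50-base stretches of the main TAF6 transcript also occur in annotated AP4M1 transcripts. AP4M1 moved in the same directions as TAF6: its log2 change was 0.42 in siTAF5 against siNT (edgeR adjusted p = 2.58e-06), -0.45 in FL against siTAF5 (edgeR adjusted p = 1.46e-06) and 0.50 in DE8 against FL (edgeR adjusted p = 6.74e-07). AP4M1 was the lower of the genes in counts, at 16.7 ± 0.253 CPM in DE8, 11.8 ± 0.669 in FL, 16 ± 0.237 in siTAF5 and 12 ± 0.878 in siNT. Its part in the TAF6 result was not tested.

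TAF9 lies inside the span of AK6, an adenylate kinase gene on the same strand. Of the 50-base stretches of the main TAF9 transcript, 28.4% occur in AK6 transcripts and 11.3% in those of RAD17 on the opposite strand. RAD17, a checkpoint gene, was lower in FL against siTAF5 (log2 -0.17, edgeR adjusted p = 0.00297), where TAF9 was higher. TAF9 shared no such stretch with TAF9B, so reads of that length from the paralogs are distinct. AK6 was not called in siTAF5 against siNT (log2 -0.08, edgeR adjusted p = 0.198) and was higher in DE8 against siTAF5 (log2 0.17, edgeR adjusted p = 0.00928). With TAF9 and AK6 summed, an alternative chosen after seeing the data, the log2 change in siTAF5 against siNT was -0.0045, again not called. TAF10 overlaps ILK, an integrin-linked kinase, on the opposite strand, but ILK moved where TAF10 was not called: log2 0.36 in siTAF5 against siNT (edgeR adjusted p = 1.3e-08) and 0.31 in DE8 against FL (edgeR adjusted p = 2.06e-07). The main TAF10 transcript shared no 50-base stretch with annotated ILK transcripts. Over all annotated exons, however, 2374 bases of TAF10, or 38.9%, lay in ILK exons. The main transcript shared 31.4% of its stretches with AC091564.7 (ENSG00000285338). That overlapping noncoding transcript on the same strand averaged 8.34 estimated counts and was not called in any comparison. The main transcripts of TAF3 and TAF13 shared no 50-base stretch with any other gene's annotated transcripts. That of TAF11 shared 2.61%, that of TAF9B 3.45% and that of TAF8 4.49%.

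**Figure D4:**
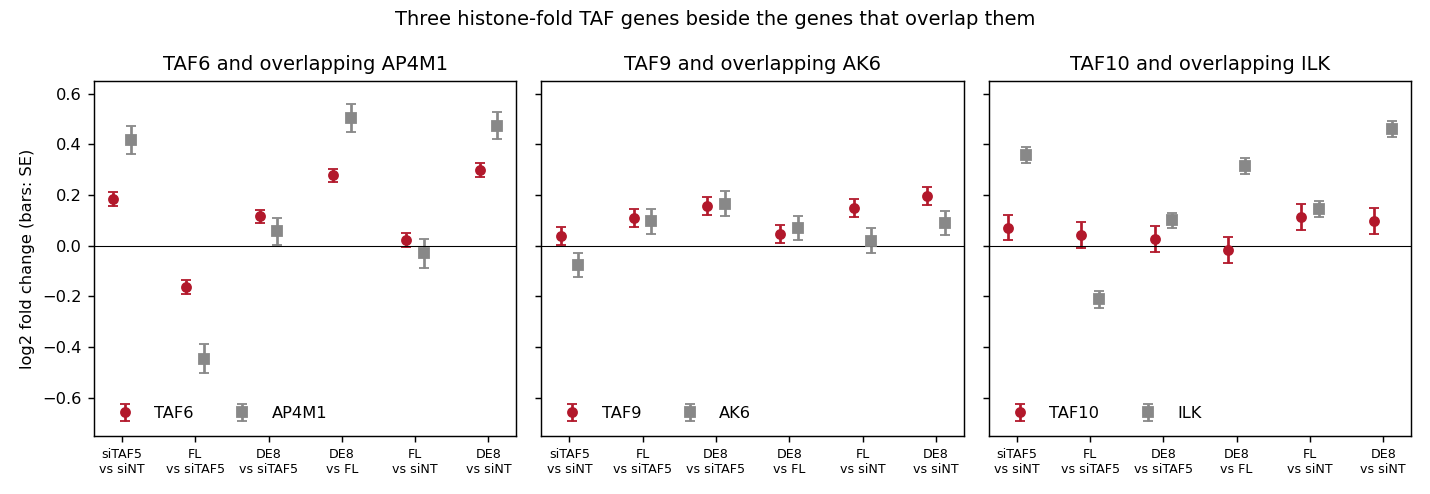
Log2 fold change with SE (vertical axis) in the 6 comparisons for TAF6, TAF9 and TAF10 (red circles) beside the genes that overlap them, AP4M1, AK6 and ILK (grey squares). AP4M1 has the sign of TAF6 where TAF6 was called, and ILK changes where TAF10 stays near 0.

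The other TFIID subunits besides TAF5 gave context. Of these 7 (TAF1, TAF2, TAF4, TAF4B, TAF7, TAF12 and TBP), 3 rose and 0 fell in siTAF5 against siNT (median log2 change 0.07). There, 24.7% of all genes were called higher, 25% lower and 49.7% either way. Between DE8 and FL, 4 were higher and 0 lower in DE8 (median 0.12), against 17.3% and 19.7% of all genes. In DE8 against FL the smallest adjusted p of the list was that of TAF12, the histone-fold partner of TAF4, which was 1.63-fold higher in DE8 (log2 0.70, SE 0.0423, edgeR adjusted p = 1.74e-10). That is a larger change than any of the 8 members showed in this comparison. In FL against siTAF5 1 rose and 3 fell (median -0.07), against 24.4% of all genes in each direction. In DE8 against siTAF5 2 rose and 0 fell (median 0.08), against 20% and 20.6%. In FL against siNT 3 were higher and 1 lower (median 0.05), against 27.8% and 26.8%. In DE8 against siNT 5 were higher and 1 lower (median 0.11), against 30.8% and 31.4%.

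Among 5 SAGA or ATAC subunits outside TFIID (SUPT3H, SUPT7L, TADA1, TAF6L and TAF5L), TADA1, a histone-fold subunit of SAGA, had values ordered like TAF8. It averaged 26.8 ± 1.21 CPM in DE8, 31.2 ± 1.39 in FL, 27 ± 1.13 in siTAF5 and 33.4 ± 0.901 in siNT. It was lower in siTAF5 against siNT (log2 -0.30, SE 0.0439, edgeR adjusted p = 8.57e-06) and in DE8 against FL (log2 -0.22, SE 0.0452, edgeR adjusted p = 0.000524). Over the list, 1 rose and 1 fell in siTAF5 against siNT (median -0.06), against 24.7% of all genes higher and 25% lower. Between DE8 and FL, 1 was higher and 2 lower in DE8 (median -0.07), against 17.3% and 19.7% of all genes. In FL against siTAF5 3 rose and 0 fell (median 0.21), against 24.4% of all genes in each direction. These were led by TAF5L, the paralog of TAF5 in SAGA (1.19-fold, edgeR adjusted p = 2.29e-07). In DE8 against siTAF5 1 rose and 1 fell (median 0.02), against 20% and 20.6% of all genes. In FL against siNT 3 were higher and 0 lower (median 0.14), against 27.8% and 26.8%. In DE8 against siNT 2 were higher and 2 lower (median -0.07), against 30.8% and 31.4%.

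For the 5 members whose group means spanned at least 0.3 on the log2 scale (TAF6, at 0.299, fell just short), the genes with the most similar profile were found by the root mean square difference of centred log2 CPM over the 12 libraries, among 12270 other genes. TAF3 was nearest to NOP2, a nucleolar RNA methyltransferase (0.0311 log2 units, where the median gene stood at 0.249), and to the RNA helicase DDX27 (0.0363). TAF8 was nearest to POGLUT3 (0.0311, median gene 0.211) and BCAT1, a branched-chain amino acid transaminase (0.0314). TAF9B was nearest to the arginine methyltransferase PRMT6 (0.0316, median gene 0.231) and to NCBP1 of the nuclear cap-binding complex (0.0321). TAF11 was nearest to the death receptor FAS (0.0361) and to TBCEL (0.0404), and TAF13 to MTMR14 (0.0377) and TMEM98 (0.0452). BCAT1 averaged 152 CPM in DE8, 181 in FL, 159 in siTAF5 and 205 in siNT, and NOP2 averaged 174, 158, 139 and 113 CPM in those groups. Likeness of profile is a description of these libraries.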

How the data were processed

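RNA of 12 libraries was prepared with a stranded mRNA kit, per the labels' protocols. Build hg38, DESeq2, Partek 10.0.23.0531, STAR 2.7.0f and cutadapt 1.18 appear in the submitters' processing notes. The sources used here give no quantifier, annotation or strand setting. Deposited was 1 table that holds estimated counts per gene, not normalized: 46.5% of values were not whole. They were rounded for the count test, and a library total moved by at most 91.3.

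Groups came from the sample titles. The fits ran in R 4.3.3 (DESeq2 1.42.0, edgeR 4.0.16, limma 3.58.1). filterByExpr with a minimum count of 10 chose the genes, and libraries were scaled with TMM factors and fitted in 1 edgeR quasi-likelihood model over the 12 libraries. The 6 comparisons were two-sided, with Benjamini-Hochberg adjustment over all 19424 genes. SE is the log2 change divided by the square root of F, and 95% intervals use the moderated degrees of freedom. The test was run on simulated data with a single spread for all genes and few changed genes, a simpler setting than these data. Without a spike-in, a change is measured against the average gene. Over all genes, replicate pairs differed by more than sampling noise (chi-square per degree of freedom 2.57 to 5). Of the table's IDs, 95.2% were in GENCODE release 29, which gave transcript lengths and shared 50-base stretches. Gene positions are the table's, with 1 base taken from the stop. The members and lists were chosen with earlier results of these data known.

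Named genes were the 8 members, the gene with the smallest adjusted p of each context list, overlapping genes, and the 2 genes most like each member whose groups spanned 0.3 (mean log2 CPM at least 2, prior count 2). Alternatives were other scalings, no count filter, DESeq2, fits of 2 groups only, a replicate block and leaving out each library.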

Additional observations from a re-analysis of the deposited data

How the results depend on the processing

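The number of members called moved by at most 1 in any comparison over 20 alternatives each: 4 to 5 in DE8 against FL, 7 to 8 in DE8 against siNT, 5 in DE8 against siTAF5, 6 to 7 in FL against siNT, 4 to 6 in FL against siTAF5 and 6 to 7 in siTAF5 against siNT. Of 918 values of single members under alternatives, 887 kept direction and call, 8 lost and 12 gained a call, and 11 changed sign, none of them called. For each comparison, 12 alternatives left out 1 library, and only 6 of those dropped a library of the groups compared. The rest act only through the shared spread and scaling, so they are weak checks. The sign changes were TAF10 in DE8 against FL (log2 0.0118 with library totals only, -0.0406 to 0.0442 with a library left out, positive without DE8 replicate 1) and in FL against siTAF5 (-0.0058 with library totals), and TAF11 in DE8 against siTAF5 (-0.0012 with upper-quartile factors). TAF13 in DE8 against FL ranged from -0.0196 to 0.0694 with a library left out. TAF6 in FL against siNT gave -0.0035 without a count filter, -0.011 with upper-quartile factors and -0.00017 to 0.0443 with a library left out, lowest without siNT replicate 3. TAF8 in DE8 against siTAF5 ranged from -0.0613 to 0.0115, highest without DE8 replicate 3, and TAF9 summed with AK6 gave -0.0045 in siTAF5 against siNT. With library totals only, TAF9 (log2 0.06, edgeR adjusted p = 0.166) and TAF13 (log2 0.11, edgeR adjusted p = 0.0774) were not called in FL against siTAF5. TAF11 there was called under several alternatives, among them the replicate block (log2 -0.10, edgeR adjusted p = 0.0375), library totals (0.00953) and no count filter (0.023). Causes were not tested.

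Over all genes, replicate numbers did not clearly pair the libraries. Same-numbered libraries of different groups had deviations correlated between -0.0507 and 0.0512 in 18 pairs. Of 12 libraries, 6 correlated best with their own number. TAF13, however, ran upward from replicate 1 to replicate 3 in all 4 groups. With the replicate block its edgeR adjusted p in FL against siTAF5 was 0.00134, against 0.0102 without it. Besides TAF11 in FL against siTAF5, the block changed no member's call. With library totals only, the share of higher calls among all called genes was 39.3% in FL against siTAF5, against 50.1% with the main scaling. Some groups of 3 were tighter than counting error alone would give, such as TAF6 in DE8 with a CV of 0.399%, so a small SD here is no measure of precision.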

Other observations

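Histone-fold genes outside TFIID were counted in the same way. Of 11 (NFYB, NFYC, DR1, DRAP1, CHRAC1, POLE3, POLE4, CENPS, CENPX, CENPT and CENPW), 4 rose and 4 fell in siTAF5 against siNT (median log2 change -0.06), where 24.7% of all genes were called higher and 25% lower. In FL against siTAF5 9 rose and 1 fell (median 0.17), against 24.4% of all genes higher and 24.4% lower. POLE3, a histone-fold subunit of DNA polymerase epsilon, averaged 137 ± 2.01 CPM in DE8, 133 ± 4.79 in FL, 124 ± 4.31 in siTAF5 and 95.4 ± 0.639 in siNT. It had the smallest adjusted p of the list in siTAF5 against siNT (1.3-fold higher, edgeR adjusted p = 2.18e-09). In DE8 against FL 2 of the 11 were higher and 5 lower (median -0.05), against 17.3% and 19.7% of all genes, led by NFYC, which was 1.17-fold lower in DE8 (edgeR adjusted p = 2.2e-05). In DE8 against siTAF5 4 rose and 0 fell (median 0.06), against 20% and 20.6% of all genes. Like the members, most of the 11 were higher than in siNT. There, 8 were higher and 0 lower in FL (median 0.15), against 27.8% and 26.8% of all genes. In DE8 7 were higher and 3 lower (median 0.11), against 30.8% and 31.4%.

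The chaperonin CCT, which folds WD40 proteins and is known to bind TAF5 before it joins TAF6 and TAF9, was measured by 8 subunit transcripts. All 8 rose in FL against siTAF5 (median log2 change 0.27), where 24.4% of all genes were called higher. All 8 also rose in DE8 against siTAF5 (median 0.21), against 20% of all genes, in a comparison that shares the siTAF5 libraries. Against siNT, 8 of 8 were higher in FL (median 0.21) and 6 of 8 in DE8 (median 0.15), where 27.8% and 30.8% of all genes were called higher in FL and in DE8. CCT2 averaged 448 ± 10.9 CPM in DE8, 482 ± 10.9 in FL, 367 ± 6.11 in siTAF5 and 357 ± 10.8 in siNT. In siTAF5 against siNT 1 rose and 3 fell (median -0.04), against 24.7% and 25% of all genes. Between DE8 and FL, 1 was higher and 4 lower in DE8 (median -0.07), against 17.3% and 19.7% of all genes. These were led by CCT3, 1.13-fold lower in DE8 (edgeR adjusted p = 4.82e-06).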
